A study of Arabidopsis thaliana with 6 samples.

Results

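The cytochrome P450 genes of the Arabidopsis leaf were examined in bundle sheath cells (BSCs), the cells that wrap the leaf veins, and in mesophyll cells (MCs), the photosynthetic cells around them. A gene was counted as a member if its probe set on the Affymetrix ATH1 array, a group of short probes for 1 transcript, matched that gene alone and if its current symbol was CYP followed by a number, a letter and a number, which leaves out the cyclophilins. This gave 22 genes, each with 1 probe set, among 22746 Arabidopsis probe sets. The gene table holds 225 genes with a symbol of this kind, and the others were not analysed here. Of the 22746 probe sets, 9310 were given no gene name here, so P450 genes outside the 22 can have a probe set on the array. The make-up of the 22 thus follows the naming and need not be that of the family. Both cell types came from untreated plants of the ecotype Landsberg (Ler) that express GFP under the scarecrow promoter (SCR:GFP). Leaf pieces were digested with cell-wall-degrading enzymes. BSC protoplasts were picked by hand for their GFP fluorescence and smaller diameter, and MC protoplasts for the lack of fluorescence and larger diameter, so a cell counts as BSC here through the activity of this promoter. RNA of 20 protoplasts of a type was amplified and hybridized to 1 array, with 3 arrays per cell type. The labels number the BSC arrays 3, 5 and 7, and the MC arrays 4, 6 and 8. The sources describe the samples as biological replicates and do not give the plants behind each batch, so the p values measure the spread between these batches.

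Cytochrome P450s are heme enzymes, most of them anchored in the membrane of the endoplasmic reticulum, which insert 1 atom of molecular oxygen into a substrate with electrons passed on by a reductase. Plants have large P450 families that make or break down hormones, sterols, pigments, cuticle lipids and defence compounds. They are sorted by sequence into clans, families (the number), subfamilies (the letter) and genes (the last number). Clan 71 is the largest in plants and holds many enzymes of specialized metabolism, among them PAD3 (CYP71B15), the last enzyme of the synthesis of camalexin, a defence compound of Arabidopsis.

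Of the 22 genes, 21 belong to clan 71 and 1, CYP51G2, to clan 51, the clan of the sterol demethylases. Of the 21, 18 are of subfamily CYP71B, for which the gene table holds 35 genes. The other 3 are CYP78A9, CYP79A2 and CYP84A4. CYP71B27 and CYP51G2 are annotated as transcribed pseudogenes and the remaining 20 genes as protein coding. On chromosome 3, 11 of the CYP71B genes lie in a run from CYP71B16 (AT3G26150) to CYP71B37 (AT3G26330), in which the gene table lists 18 P450 symbols. A second run, from CYP71B27 to CYP71B29 on chromosome 1, holds 3 of the 22 genes. Other P450 genes in or beside it were not counted. The letters of the probes were not at hand, so whether the probe set of a CYP71B gene also binds RNA of its relatives was not tested.

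The 22 P450 genes were at low levels in both BSCs and MCs. Levels are given as log2(NREL), the log2 of the normalized expression level that was deposited for each probe set. The study takes a mean of 2 as the level of an expressed gene and 3.5 as a high level. A mean of 2 was reached by 8 of the 22 genes (36.4%) in BSCs and by 8 in MCs, where 49.7% of all probe sets reached it in BSCs and 48.5% in MCs. In both cell types it was reached by 7 genes, namely CYP71B6, CYP71B22, CYP71B27, CYP71B28, CYP71B29, CYP71B38 and CYP51G2. CYP71B34 reached it in BSCs only and CYP84A4 in MCs only. A mean of 3 was reached by none in either cell type, against 13.5% of all probe sets, and a mean of 3.5 by none, against 8.43%. CYP71B6 and CYP71B27 were at 2 or above on every array. CYP71B5, CYP71B23, CYP71B24, CYP71B25, CYP71B26, CYP71B36 and CYP78A9 were below 2 on every array. A level of 2 is near the median of the arrays, which lay between 1.88 and 2.06, so it need not mean a detected transcript. The paper places this threshold well above background, which was not tested here. Probe sets differ in how well they bind, so the order of 2 genes by level need not be their order by transcript.

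**Figure D1:**
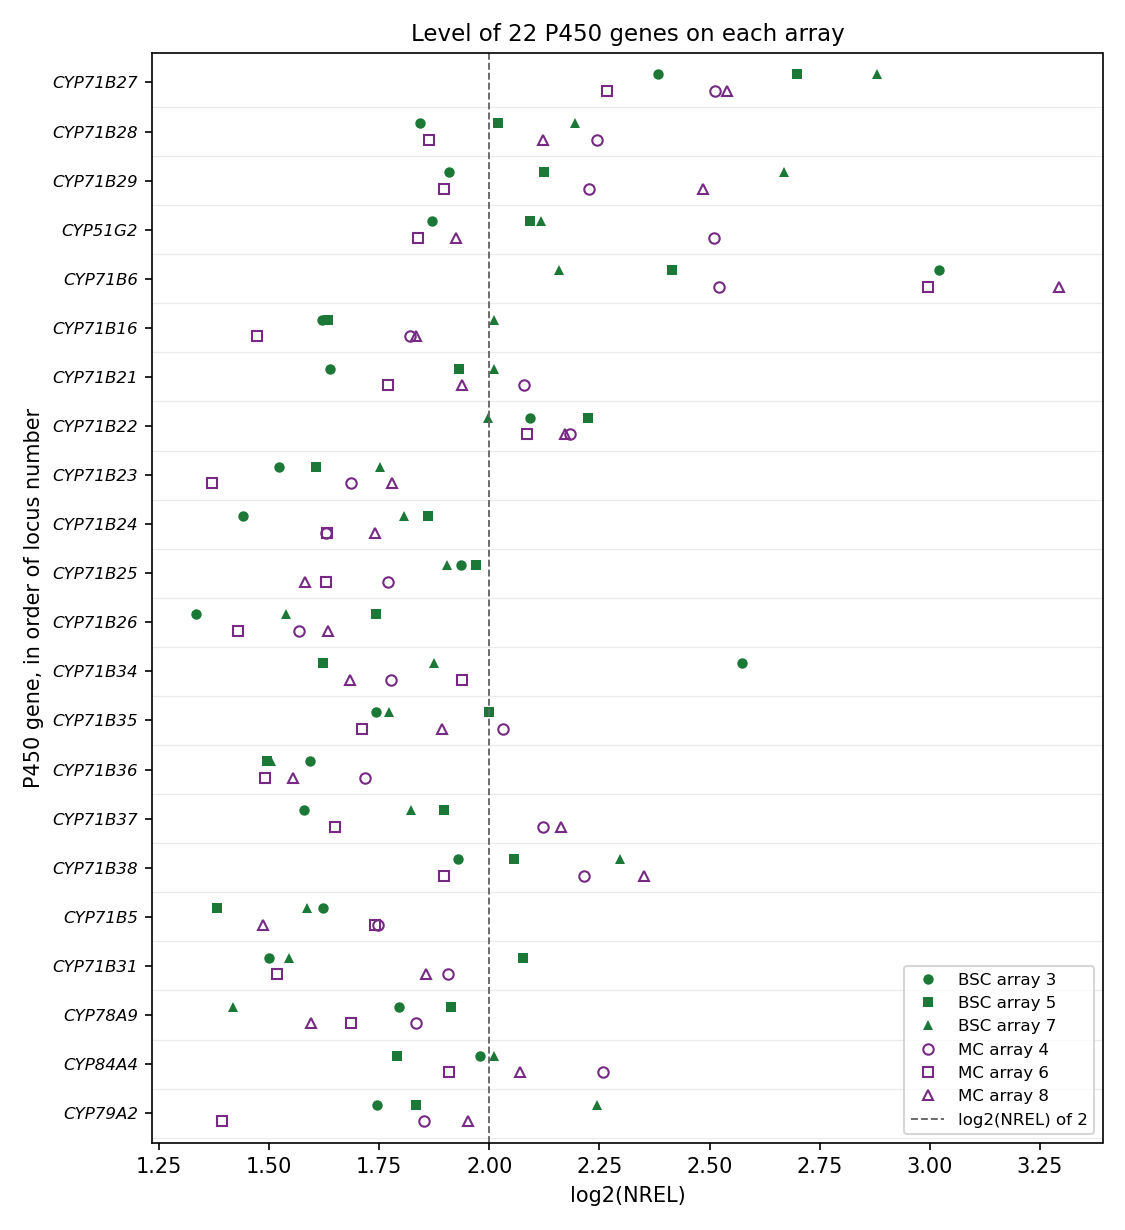
Level of each of the 22 P450 genes, in order of locus number, as log2(NREL) on the horizontal axis, with BSC arrays as filled green symbols above and MC arrays as open purple symbols below. Most points lie between 1.33 and 2.70, CYP71B6 reaches 3.29 on MC array 8, and for CYP71B25 alone the BSC symbols all lie to the right of the MC symbols.

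None of the 22 P450 genes passed the thresholds of the study between BSCs and MCs. These are a fold change of at least 1.5 in either direction together with an unadjusted p under 0.05, taken here from limma, which fits each probe set by a linear model and borrows its spread in part from the others. In either direction 0.501% of all probe sets passed, 0.141% with a higher and 0.361% with a lower level in BSCs. At a share of 0.501%, 0 calls among 22 genes is near the background and is not a result about this family. At an unadjusted p under 0.05 alone there was 1 of the 22, CYP71B25, against 1.6% of all probe sets (0.589% with the higher level in BSCs, as it had), and no gene had an adjusted p under 0.05. The difference BSC minus MC had a median of -0.04 on the log2 scale over the 22 genes, beside 0.01 over all probe sets. It was positive for 9 genes and negative for 13, where 54.1% of all probe sets had a positive difference. The differences ran between -0.41 for CYP71B6 and 0.28 for CYP71B25, and none reached 1.5-fold, which is 0.58 on the log2 scale and was reached by 6.08% of all probe sets. In samples of pooled cells, fewer cells of a type with a transcript and less of it per cell cannot be told apart.

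The 95% confidence interval of the difference lay wholly within 1.5-fold in either direction for 16 of the 22 genes, against 58.8% of all probe sets. Of the 16, CYP71B22, CYP71B28, CYP71B38 and CYP51G2 had a mean of 2 in both cell types. The others were below 2 in at least 1. All 16 had means near or below the median of the arrays. At such levels a narrow interval bounds the difference in signal and need not bound one in transcript. The interval was the narrowest for CYP71B25 and CYP71B22. For CYP71B22 the values were 2.09, 2.22 and 2.00 on BSC arrays 3, 5 and 7, and 2.18, 2.09 and 2.17 on MC arrays 4, 6 and 8, with an interval from -0.30 to 0.21. The cell types overlapped, and the 6 values spanned 0.23. In 6 genes the interval reached past 1.5-fold: CYP71B6, CYP71B27, CYP71B29, CYP71B34, CYP71B37 and CYP79A2. For these a difference of 1.5-fold lay inside the interval of at least 1 direction.

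**Figure D2:**
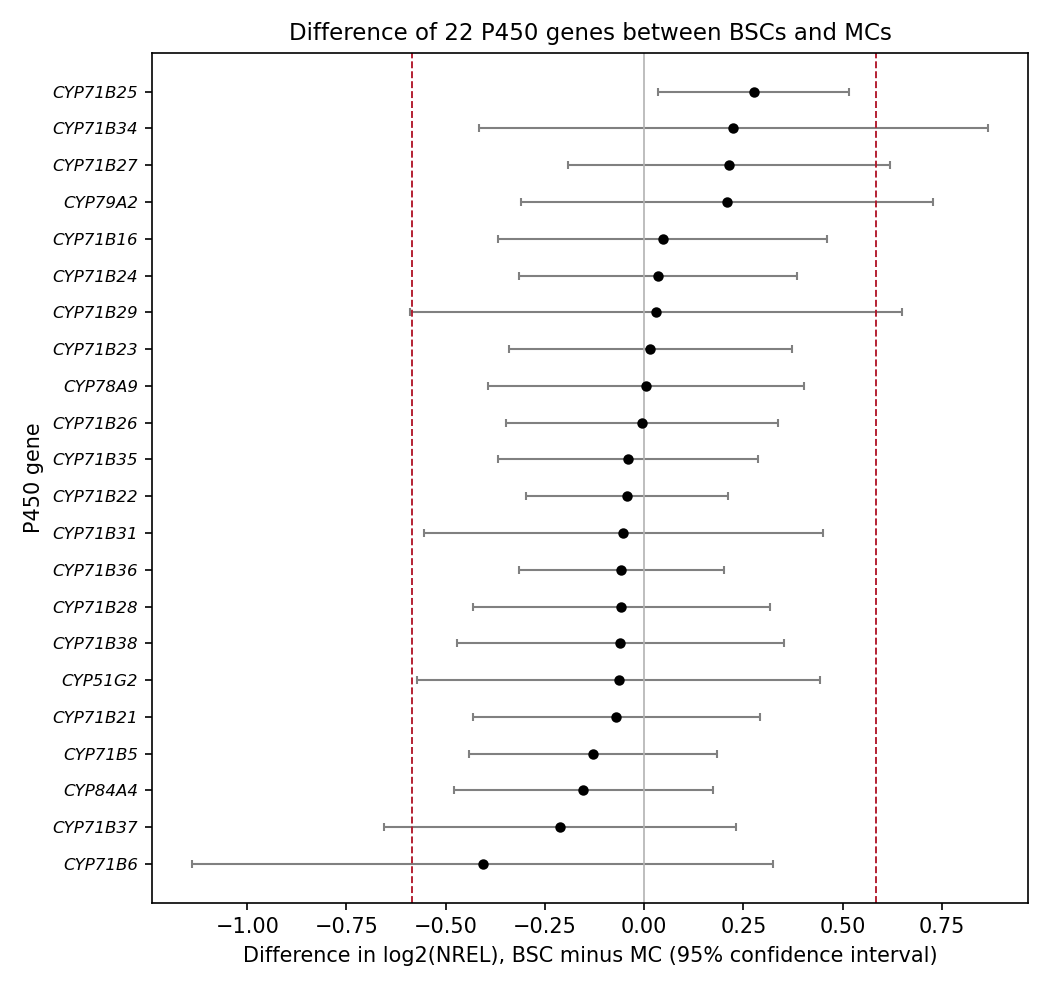
Difference in log2(NREL) between BSCs and MCs for each of the 22 P450 genes (points, BSC minus MC) with its 95% confidence interval in limma (bars), sorted by size. The dashed red lines mark 1.5-fold in either direction, 0.58 on the log2 scale: 16 intervals lie between them, 6 cross a line, and the interval of CYP71B25 alone, from 0.04 to 0.52, does not include 0.

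CYP71B25 (AT3G26270) was the gene whose BSC and MC arrays did not overlap. It had a log2(NREL) of 1.93, 1.97 and 1.90 on BSC arrays 3, 5 and 7, and 1.77, 1.63 and 1.58 on MC arrays 4, 6 and 8. All BSC arrays lay above all MC arrays, and all 6 values lay below the level of expressed genes. The difference was 0.28 (standard error 0.10), a fold of 1.21, with an unadjusted p of 0.0309 and an adjusted p of 1 in limma. It did not reach 1.5-fold and was therefore not called. Groups without overlap in either direction were found for 1 of the 22 genes (4.55%), against 6% of all probe sets, or 3.14% with the BSC arrays above. The unadjusted p in limma was 0.0475 without BSC array 7 and 0.0335 without MC array 4. It was between 0.0619 and 0.104 without any one of the other arrays, with a difference between 0.24 and 0.28.

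CYP71B6 (AT2G24180), an enzyme of indole metabolism that acts on indole-3-acetonitrile, had the highest mean of the 22 probe sets. It was at 3.02, 2.41 and 2.16 on BSC arrays 3, 5 and 7, and 2.52, 2.996 and 3.29 on MC arrays 4, 6 and 8. BSC array 3 stood with the upper MC arrays and MC array 4 with the lower BSC arrays, so the cell types overlapped. The mean was 2.53 ± 0.44 in BSCs and 2.94 ± 0.39 in MCs (SD, n = 3 each), a difference of -0.41 with an interval from -1.14 to 0.33, the widest of the family. The difference was -0.65 without BSC array 3 and -0.22 without BSC array 7, so single arrays decided its size. It was -0.61 without MC array 4 and -0.23 without MC array 8.

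The 11 members in the run on chromosome 3 were all at similar, low signals, and the other P450 genes there were not examined. Their means over the 6 arrays lay between 1.54 for CYP71B26 and 2.13 for CYP71B22, and 2 of the 11 reached 2 in either cell type. The median difference of the 11 was -0.01, with 5 positive and 6 negative. CYP71B34 (AT3G26300), next to CYP71B35 in the gene table, was at 2.57 on BSC array 3 but at 1.62 and 1.87 on BSC arrays 5 and 7, and at 1.78, 1.94 and 1.68 on MC arrays 4, 6 and 8. Its mean of 2 in BSCs thus came from 1 array, and its SD in BSCs, 0.49, was the largest of the family in either cell type. CYP71B37 was at 1.58, 1.90 and 1.82 on the BSC arrays and at 2.12, 1.65 and 2.16 on the MC arrays. MC array 6 lay among the BSC arrays. The difference was -0.21, and -0.38 (unadjusted p = 0.0465 in limma) without MC array 6, still under 1.5-fold. The remaining members in the run (CYP71B16, CYP71B21, CYP71B23, CYP71B24, CYP71B26, CYP71B35 and CYP71B36) had values between 1.33 and 2.08 and differences between -0.07 and 0.05.

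The 3 members in the run on chromosome 1 stood somewhat higher in signal, and all 3 reached 2 in both cell types. The pseudogene CYP71B27 was at 2.38, 2.70 and 2.88 on BSC arrays 3, 5 and 7, and 2.51, 2.27 and 2.54 on MC arrays 4, 6 and 8. BSC array 3 lay among the MC arrays. The difference was 0.21 with an interval from -0.19 to 0.62. CYP71B29 was at 1.91, 2.12 and 2.67 on the BSC arrays and at 2.23, 1.90 and 2.49 on the MC arrays, a difference of 0.03 with a wide interval, from -0.59 to 0.65. In both cell types its values were spread over more than the difference between them. CYP71B28 had means of 2.02 ± 0.18 in BSCs and 2.08 ± 0.19 in MCs (SD, n = 3 each).

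Further CYP71B genes on chromosome 3 had differences within the spread of their arrays. CYP71B31, which can oxidize the scent compound linalool, was at 1.50, 2.08 and 1.55 on BSC arrays 3, 5 and 7, and 1.91, 1.52 and 1.86 on MC arrays 4, 6 and 8. BSC array 5 held the highest value and BSC array 3 the lowest, so the MC values lay inside the range of the BSC values. CYP71B5, its near neighbour, had means of 1.53 ± 0.13 in BSCs and 1.66 ± 0.15 in MCs (SD, n = 3 each). CYP71B38 had 2.09 ± 0.19 and 2.15 ± 0.23 in the same order.

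Among the genes outside CYP71B, CYP79A2 (AT5G05260) converts phenylalanine to an aldoxime on the way to benzylglucosinolate. It was at 1.74, 1.83 and 2.24 on BSC arrays 3, 5 and 7, and 1.85, 1.39 and 1.95 on MC arrays 4, 6 and 8. BSC array 7 was the highest and MC array 6 the lowest, while BSC arrays 3 and 5 lay below MC arrays 4 and 8, opposite to the difference of the means. The difference was 0.21 with an interval from -0.31 to 0.73. CYP84A4 (AT5G04330), an enzyme of the synthesis of arabidopyrones from phenylpropanoids, was at 1.98, 1.79 and 2.01 on the BSC arrays and at 2.26, 1.91 and 2.07 on the MC arrays. The cell types overlapped through MC array 6, and the difference was -0.15 with an interval from -0.48 to 0.17. With array weights, by which limma gives arrays that fit the model poorly less influence, it was -0.31 (unadjusted p = 0.0295 in limma), also under 1.5-fold. The weight was 3.12 for BSC array 5, which held the lowest value of the gene, and 0.42 and 0.41 for BSC arrays 3 and 7. For MC arrays 4, 6 and 8 it was 2.05, 0.47 and 1.92. The weighted BSC level thus rests largely on 1 array. CYP78A9 (AT3G61880), which promotes the growth of fruits and seeds, was at 1.79, 1.91 and 1.42 on the BSC arrays and at 1.83, 1.69 and 1.59 on the MC arrays. Its difference was close to 0, at 0.0049 with an interval from -0.39 to 0.40. CYP51G2 was at 1.87, 2.09 and 2.12 on the BSC arrays and at 2.51, 1.84 and 1.92 on the MC arrays, with MC array 4 alone above the others.

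The level of the P450 genes varied between the arrays of 1 cell type. Their median on BSC arrays 3, 5 and 7 was 1.77, 1.92 and 1.95, and on MC arrays 4, 6 and 8 it was 1.97, 1.73 and 1.91. BSC array 3 and MC array 6 thus had the lowest medians of the family, and they also had the lowest medians of all probe sets, 1.88 and 1.89, against 1.97 to 2.06 on the other arrays. MC array 6 held the lowest value of 9 of the 22 genes (40.9%) and BSC array 3 that of 6 (27.3%), where they held the lowest value of 28.0% and 30.3% of all probe sets. After quantile normalization, which gives every array the same distribution, these counts were 6 and 5. The shares of all probe sets were then 18.4% and 22.0%. BSC array 7 then held the lowest value of 6 genes (27.3%), against 21.9% of all probe sets. In the deposited values it held that of 3 genes (13.6%), against 14.3% of all probe sets. BSC array 7, the array with the fewest bright probe sets (78 at 5 or above, against 406 to 1157 on the others), had 10 P450 genes at 2 or above, and the others had 3 to 11. Without it, 4 genes reached a mean of 2 in both cell types (CYP71B6, CYP71B22, CYP71B27 and CYP71B29) in place of 7. The part of the array distribution in the levels of single P450 genes was not tested.

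**Figure D3:**
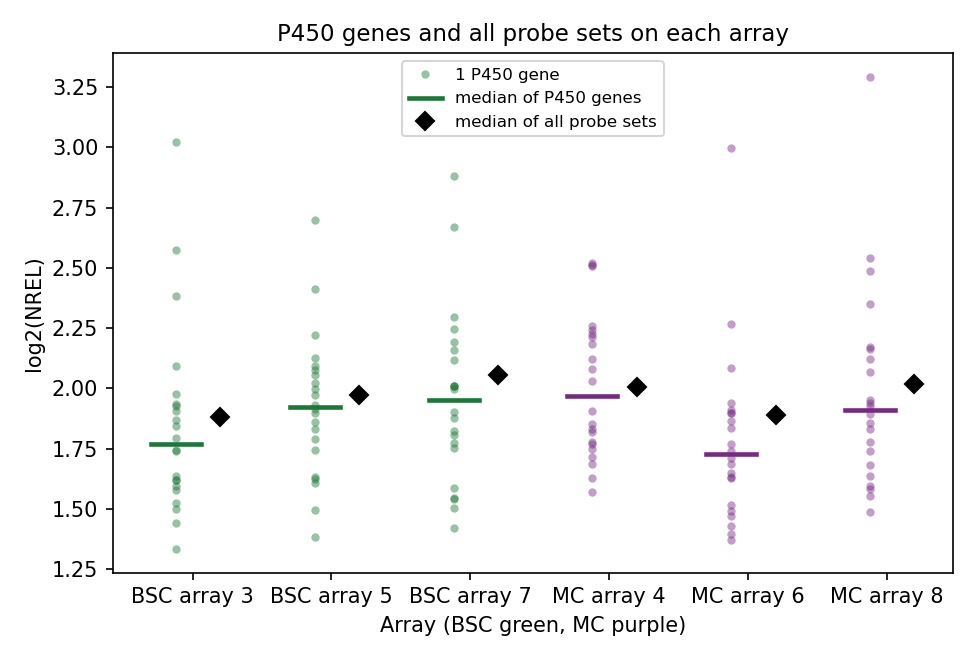
Log2(NREL) of the 22 P450 genes on each array (dots), their median (bar) and the median of all 22746 probe sets (black diamond), with BSC arrays in green on the left and MC arrays in purple on the right. On every array the median of the P450 genes, 1.73 to 1.97, lies below that of all probe sets, 1.88 to 2.06, and both are lowest on BSC array 3 and MC array 6.

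Other P450 genes and partner genes could be set beside the family only in part. Of 91 P450 names in 17 pathway lists (hormones, sterols, carotenoids, cuticle, defence and others), 4 had a named probe set, CYP79A2, CYP84A4, CYP71B31 and CYP78A9. Of these 0 passed the thresholds of the study, against 0.501% of all probe sets. Of 84 partner genes in 7 lists, 3 had one, namely BCAT4, UGT74B1 and LYC, and 0 passed. The lists include 9 redox partners of P450s, among them the reductases, of which 0 had a named probe set. Their levels were thus not examined. At the share of all probe sets, 0 calls among so few genes is not a result about these lists. BCAT4, an aminotransferase that starts the methionine chain elongation of glucosinolate synthesis, was at 5.53, 5.23 and 1.79 on BSC arrays 3, 5 and 7, and 2.08, 2.65 and 2.24 on MC arrays 4, 6 and 8. BSC arrays 3 and 5 lay above all MC arrays and BSC array 7 below them. The difference was 1.86 (standard error 1.01) and did not pass in limma. Without BSC array 7 it was 3.06 and passed. Without any other single array it was between 1.19 and 2.03 and did not pass. UGT74B1, a glucosyltransferase of the same pathway, had means of 2.41 ± 0.54 in BSCs and 2.04 ± 0.30 in MCs, and LYC, the lycopene cyclase, 2.99 ± 1.35 and 3.03 ± 0.88 (SD, n = 3 each). Of 29 marker genes of leaf cell types, 2 had a named probe set, so the labels BSC and MC were not checked against their defining markers here. The transporter gene SWEET11 of phloem parenchyma had 3.28 ± 0.74 in BSCs and 3.25 ± 0.41 in MCs, and FMA (FAMA), a regulator of guard cells, 2.06 ± 0.27 and 1.88 ± 0.08 (SD, n = 3 each).

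Of the P450 genes that the rule on symbols or probe sets left out, only CYP718, CYP71B30P and CYP81H1 were looked at. CYP718, whose symbol has no letter, had means of 2.28 ± 0.50 in BSCs and 2.13 ± 0.33 in MCs, and CYP71B30P 1.75 ± 0.25 and 1.59 ± 0.11 (SD, n = 3 each). CYP81H1 (AT4G37310), a gene of clan 71, was named only through the list of genes that the study chose on these samples. Neither its call nor its direction is therefore independent evidence. It was at 3.39, 3.20 and 2.17 on BSC arrays 3, 5 and 7, and 4.25, 4.14 and 3.63 on MC arrays 4, 6 and 8. Each BSC array was below the lowest MC array, with a difference of -1.08 (standard error 0.36, unadjusted p = 0.0261 and adjusted p = 1 in limma), so it was lower in BSCs at the thresholds of the study. The call ended without MC array 4 (-0.96) and without MC array 6 (-1.02), and the difference was -0.71 without BSC array 7, where it passed. It also ended in the methods' t-test.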

How the data were processed

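RNA of BSC and MC protoplasts was measured on 6 Affymetrix ATH1 arrays. Normalization and summary by the robust multi-average method were done by the authors in Partek (version 6.6 in the submitters' processing notes, another version in the paper). They deposited log2 values per probe set, which were used as deposited. The columns do not share 1 distribution, and scanner files were not used here. Arrays have no count depth, so their number limits the precision. After 64 control probe sets were left out, 22746 remained. Of 13513 probe sets with 1 gene, 13436 matched the TAIR10.1 gene table by gene number, and 503 with several genes were given no name. In all, 9310 of the 22746 had no name here. Samples were grouped by their labelled cell type. All 22746 probe sets entered 1 fit in limma 3.58.1 (R 4.3.3; functions lmFit and eBayes), with 2-sided p values adjusted by Benjamini and Hochberg's method. The smallest p of an exact permutation of 3 arrays against 3 is 0.1, so none is given. Alternatives were array weights, a prior trended on level, the methods' 2-sided t-test, quantile normalization, median centring, filters on the mean level and each array left out. For the arrays the paper names an analysis of variance, and the t-test is from its section on statistics. A difference was given a direction only at an unadjusted p under 0.05. All members are named, and the genes outside the family are those of the lists with a named probe set, except CYP718, CYP71B30P and CYP81H1, added after their values were seen. Members and lists were chosen with earlier results of these data known. The models were tested on simulated data. No sequences were used. Figures were drawn with matplotlib 3.10.9.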

Additional observations from a re-analysis of the deposited data

How the results depend on the processing

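None of the 22 P450 genes passed the thresholds of the study, higher or lower in BSCs, in limma, in the methods' t-test, with a trended prior, with array weights, after median centring, after quantile normalization, at a mean of at least 2 (8 genes) or without any one array, where the counts were 0 to 0 in each direction. At a mean of at least 3 no member was left, and each member has 1 probe set, so averaging of probe sets was not run. An unadjusted p under 0.05 was found for 0 to 2 genes under these settings. The median difference of the family was between -0.08 and -0.04 under the settings that keep all arrays, and between -0.11 and 0.03 without single arrays. It was positive when BSC array 3 or MC array 4 was left out. The medians of the family on single arrays had an SD of 0.11 within a cell type. That SD does not measure the spread of the median difference. The sign of the difference, which was given no direction for 21 of the 22 genes, changed for 8 genes with array weights and for 2 to 9 without single arrays. The number of genes with a mean of 2 in both cell types was 4 to 7 without single arrays (4 without BSC array 7), and 0 to 0 genes reached 3.5 in either. The arrays of the cell types share no replicate number. The paper states that BSCs and MCs were extracted together, but not which BSC and MC arrays came from the same extraction. With consecutive numbers as a replicate block, chosen after seeing the data, 0 genes passed in each direction and the unadjusted limma p of CYP71B25 was 0.0793; the deviations of these pairs correlated by -0.54, 0.04 and 0.50 across probe sets.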
